A study of Mus musculus with 20 samples.

Results

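The genes described here serve the uptake of fatty acids and their oxidation in mitochondria. They are 9 genes taken by symbol from a table of 55822 mouse genes: Cd36, Cpt1a, Cpt2, Acadm, Acadl, Hadha, Hadhb, Acaa2 and Plin2. All 9 were among the 16266 genes with enough reads to be tested. The kidneys came from male C57BL/6J mice aged 8 weeks, and poly(A) RNA of whole kidney was sequenced. The comparison set 5 samples from mice that received phosphate-buffered saline (PBS), the control, against 5 from mice that received 1 mg of puberulic acid daily. This compound is a tropolone of Penicillium moulds, and the study tested it beside lots of a red yeast rice supplement, which are not analysed here. Every mouse received 6 daily administrations, and kidneys were taken on day 7. The labels name oral gavage or intraperitoneal injection as the route and do not give it for single mice. They do not say whether each sample is 1 mouse, so the p-values measure the spread between these samples.

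Long-chain fatty acids enter a cell partly through CD36, are activated to acyl-CoA, and cross into the mitochondrion as carnitine esters through CPT1, a carrier and CPT2. In the matrix each round of beta-oxidation runs through an acyl-CoA dehydrogenase, a hydratase, a hydroxyacyl-CoA dehydrogenase and a thiolase, and releases acetyl-CoA. The proximal tubule of the kidney draws much of its energy from this pathway, and many of its genes are targets of the nuclear receptor PPAR-alpha. Fatty acids that are not oxidised can be stored as triglyceride in lipid droplets, whose coat protein PLIN2 is stabilised by lipid.

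Of the 9 genes, 7 fell with puberulic acid, 1 rose (Plin2) and 1 (Hadha) did not pass the test. The medium-chain dehydrogenase Acadm fell most, by 2.27 on the log2 scale, which is 4.84-fold. Control and treated ranges were separate for 8 of the 9. These counts stand beside a large background: of all genes tested, 65.3% were called in either direction, 31.1% were called lower, 34.2% were called higher, and 50.1% had ranges that did not overlap. The median log2 fold change was -1.15 over the 9 genes and 0.05 over all genes tested. Levels are in CPM, a gene's counts relative to the library total after TMM scaling, which applies a factor per library that centres most genes near no change. Each log2 fold change is puberulic acid minus control, with its standard error (SE), and the adjusted p comes from the quasi-likelihood test of edgeR, adjusted by Benjamini-Hochberg over all genes tested. A gene is called where it is under 0.05, and only called genes are said to rise or fall.

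**Figure D1:**
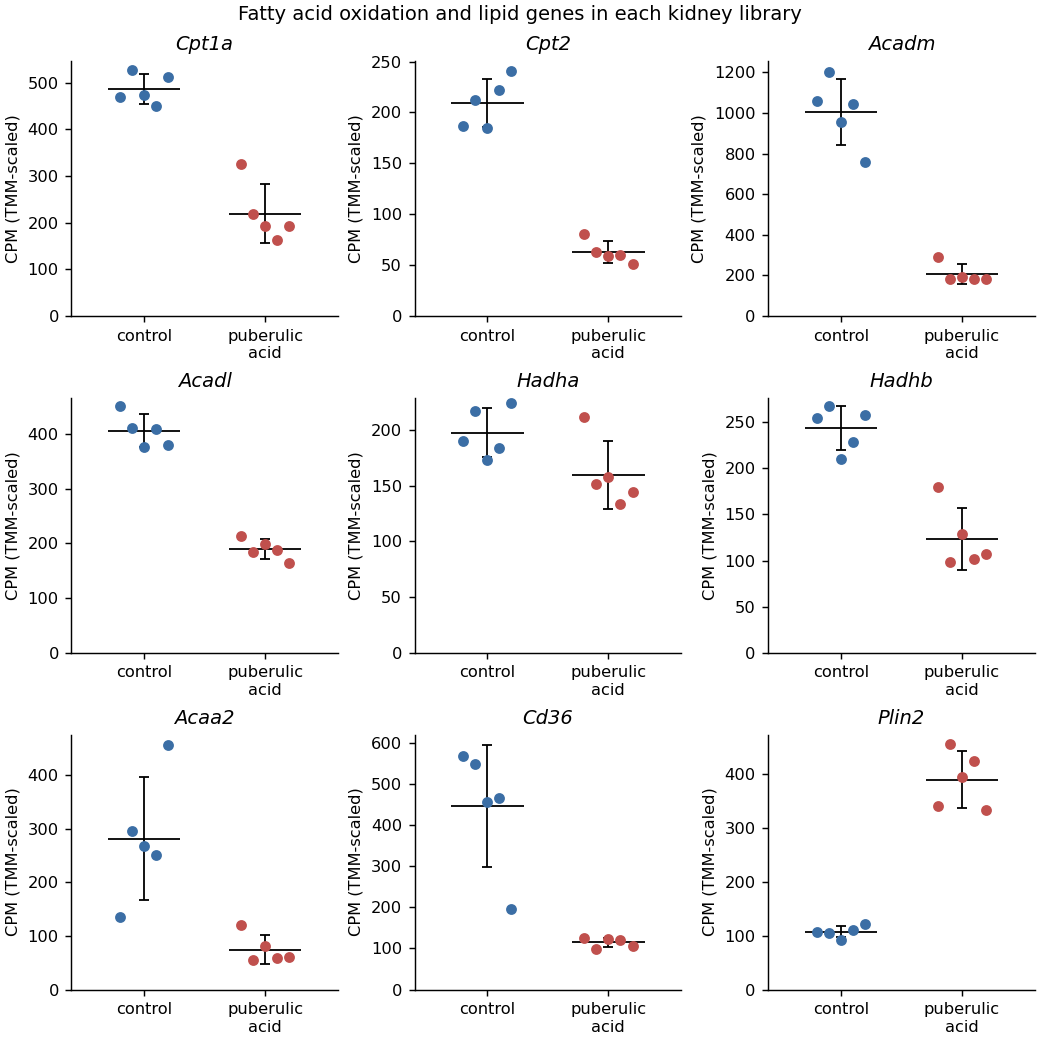
The level of each of the 9 genes in CPM (each panel's own linear axis) in the 5 control and 5 puberulic acid samples, with points for samples and bars for the mean and SD. Plin2 alone is higher in every treated sample, and Hadha alone has groups that overlap.

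The libraries held 18409940 to 24705953 counts. Treated kidneys differed in the levels of cell type markers. The summed level of 10 proximal tubule markers was 9742 to 14260 CPM in controls and 628 to 1528 CPM with puberulic acid, and all 10 were called lower, with Slc22a8 at -6.76 and Slc34a1 at -5.36 on the log2 scale (-6.20 for Slc34a1 without treated sample 1). Of 6 macrophage markers 4 rose (Cd68 by 3.83 and C1qa by 2.47), with a sum of 86.1 to 208.1 CPM in controls and 187.7 to 650.6 CPM in treated samples. Of 5 fibroblast markers 4 rose (Col1a1 by 4.14 and Dcn by 1.24), with sums of 76.5 to 108.2 CPM and 255.2 to 783.4 CPM. Among the other lists, 4 of 5 loop and distal tubule markers fell (Pvalb at -4.18 and Calb1 at -1.93 among them, and at -5.68 and -2.60 without treated sample 1), as did 4 of 5 of the collecting duct (Aqp3 at -1.90, while Slc4a1 was called only without treated sample 1 among the samples left out in turn, at -3.30), 2 of 6 of the endothelium (Kdr at -0.83, while Emcn at -0.48 was not called) and 1 of 3 of podocytes (Nphs1 at -1.01, while Synpo at 0.28 was not called, and Nphs1 missed the threshold without control 3, 4 or 5 or treated sample 3). The loop and distal tubule marker that did not fall was Umod, at 3335 CPM in controls and 3476 CPM in treated samples (0.06). Umod was chosen after its values were seen and was the most abundant of that list. The summed level of that list was 3875 to 5745 CPM in controls and 3144 to 6320 CPM in treated samples, which overlap. Sums also overlapped for the endothelium and podocytes, but not for the collecting duct (557.5 to 822.1 and 256.4 to 387.3 CPM). Mitochondrially encoded genes took 18.8% to 22.2% of counts in controls and 10.5% to 13.8% in treated samples. Refitted without these and the 10 most abundant genes, none of the 9 genes moved by more than 0.0010 on the log2 scale. The part of the cell type markers in the results below was not tested. In whole kidney, fewer cells of a type and less RNA per cell cannot be told apart. Without TMM scaling, on total counts alone, the median log2 fold change of all genes was 0.56 instead of 0.05, so the log2 fold changes below would lie higher by nearly that difference.

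Promoters show what these genes share in sequence, and the 2 subunit genes of the trifunctional protein, Hadha and Hadhb, share theirs. RefSeq's table on GRCm38.p6 matched 8 of the 9 genes, all but Acaa2, with windows from 250 bases before to 50 after each start. Hadha and Hadhb start 273 bases apart on opposite strands of chromosome 5 and point away from each other, so the 272 bases between the starts (chr5:30154981-30155252, plus strand, read toward Hadhb) precede both. That stretch is printed because the 2 genes behaved differently below. Acadm, which fell most, and Plin2, which rose, are shown by the 250 bases before their starts (chr3:153944644-153944893 and chr4:86670060-86670309, both minus strand). Capitals mark GGGCGG (GC box), AGGTCA (the core motif of nuclear receptors) and CCAAT, or the reverse complement of any of them, all searched on both strands.
Hadha-Hadhb: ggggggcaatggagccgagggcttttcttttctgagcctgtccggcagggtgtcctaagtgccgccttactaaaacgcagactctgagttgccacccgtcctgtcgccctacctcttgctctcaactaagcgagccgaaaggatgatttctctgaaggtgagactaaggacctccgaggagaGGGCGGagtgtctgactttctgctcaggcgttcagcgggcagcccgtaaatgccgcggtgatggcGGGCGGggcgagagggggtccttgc
Acadm: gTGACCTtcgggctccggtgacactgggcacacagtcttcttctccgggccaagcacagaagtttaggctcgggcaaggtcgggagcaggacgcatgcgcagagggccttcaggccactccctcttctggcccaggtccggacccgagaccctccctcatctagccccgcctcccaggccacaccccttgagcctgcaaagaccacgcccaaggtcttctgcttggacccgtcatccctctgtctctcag
Plin2: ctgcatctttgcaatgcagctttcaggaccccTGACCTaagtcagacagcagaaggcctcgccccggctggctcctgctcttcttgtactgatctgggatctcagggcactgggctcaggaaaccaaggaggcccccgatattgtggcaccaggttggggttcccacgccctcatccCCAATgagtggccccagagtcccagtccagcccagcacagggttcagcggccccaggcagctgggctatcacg

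The GC box was in 7 of the 8 windows, in all but that of Acadm, against 35.7% of 32851 RefSeq windows of the same length. The windows of Hadha and Hadhb share 228 bases, and the only GC box of Hadha is also counted for Hadhb. The core motif AGGTCA was in 4 of 8 (Cpt1a, Acadm, Cd36 and Plin2) against 16.3% of all windows, and CCAAT was in 3 of 8 (Cpt1a, Cd36 and Plin2) against 37.4%. The motif AGGTCANAGGTCA, a tandem of the core motif as PPAR-alpha binds it, was in 0 of 8 windows and in 0.0396% of all, and TNAAGGTCA, the element of estrogen-related receptors, was in 0 of 8 and in 421 of all 32851. Both contain the core motif. TATAAA (13.6% of all) and GCGCNTGCGC, the NRF1 motif (4.6%), were also in none of the 8. The Hadha-Hadhb stretch was 60.3% G or C, with 2 GC boxes. AGGTCA was thus in windows of 3 genes that fell and of Plin2, which rose. A match is a description of letters and no evidence of binding.

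Cd36 (ENSMUSG00000002944) encodes the scavenger receptor that takes up long-chain fatty acids at the plasma membrane. Its level was 567.8, 548.3, 455.0, 465.4 and 196.6 CPM in control samples 1 to 5 and 124.9, 98.4, 123.4, 120.6 and 106.7 CPM in treated samples 1 to 5. Control 5 was far below the other controls, yet all treated samples lay below it. The mean was 446.6 ± 148.3 CPM in controls and 114.8 ± 11.7 CPM in treated samples (SD, n = 5 each), and the log2 fold change was -1.96 (SE 0.24, edgeR adjusted p = 1.68e-05). The other genes of uptake and activation did not all move with it. Of the 12 tested in that list, which holds Cd36, 7 fell, 2 rose and 3 did neither, with a median of -0.88. Slc27a2, a fatty acid transporter and very-long-chain acyl-CoA synthetase, went from 5233 to 724.1 CPM, a fall of 2.85 on the log2 scale (SE 0.11, adjusted p = 3.36e-09). Acsl1, a long-chain acyl-CoA synthetase, fell by 1.24, from 184.9 to 78.1 CPM (adjusted p = 0.00112). Acsl4, a synthetase that prefers arachidonic acid, rose from 42.4 to 88.1 CPM, a log2 fold change of 1.05 (adjusted p = 1.14e-05).

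Cpt1a (ENSMUSG00000024900) encodes the outer-membrane carnitine palmitoyltransferase, the regulated entry step of the mitochondrial pathway. Its level was 470.1, 527.4, 473.3, 449.9 and 512.5 CPM in controls and 326.6, 217.7, 193.8, 163.3 and 192.8 CPM with puberulic acid. Treated sample 1 stood well above the other treated samples and still below every control. The means were 486.6 ± 32.2 and 218.8 ± 63.3 CPM, and Cpt1a fell by 1.15 on the log2 scale (SE 0.16, adjusted p = 6.16e-05). Cpt2 (ENSMUSG00000028607), the inner-membrane transferase that hands the acyl group back to CoA, was at 186.3, 212.2, 184.9, 222.4 and 241.0 CPM in controls. In treated samples Cpt2 was at 80.7, 63.3, 59.0, 59.7 and 51.0 CPM. Every treated sample was below the lowest control by more than the range among treated samples. Its means were 209.3 ± 24.0 and 62.8 ± 11.0 CPM and its log2 fold change was -1.74 (SE 0.13, adjusted p = 3.68e-07).

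Of the 9 genes of the carnitine shuttle, 8 were called lower and 1 higher, with a median of -1.20, and on total counts 6 were lower and 1 higher. Its largest falls outside the 9 genes were those of Slc22a5, the carnitine transporter of the plasma membrane (293.3 to 51.2 CPM, log2 fold change -2.52, adjusted p = 2.25e-07), and of Mlycd, which degrades the CPT1 inhibitor malonyl-CoA (97.0 to 20.0 CPM, -2.28, adjusted p = 6.17e-09). Acacb, which makes malonyl-CoA and was chosen after its values were seen, is also in this list. Acacb fell from 28.7 to 17.4 CPM (-0.72, adjusted p = 0.0224) with overlapping groups. Slc25a20, the carnitine-acylcarnitine carrier between CPT1 and CPT2, fell by 1.20 (85.4 to 37.1 CPM, adjusted p = 2.83e-05). The muscle isoform Cpt1b went from 30.7 to 16.6 CPM (-0.88, SE 0.33, adjusted p = 0.0335) with overlapping groups. It missed the threshold on total counts (-0.38, adjusted p = 0.32) and without control 3, 4 or 5 or treated sample 2 or 5 (adjusted p = 0.055 to 0.0713). The brain isoform Cpt1c was the gene called higher, at 1.03 CPM in controls and 2.01 CPM in treated samples (0.96, adjusted p = 0.00596), also with overlapping groups.

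Acadm (ENSMUSG00000062908) encodes the medium-chain acyl-CoA dehydrogenase. It was at 1058, 1204, 958.5, 1044 and 758.1 CPM in controls and at 292.3, 184.2, 193.3, 184.8 and 183.7 CPM in treated samples. Treated samples 2 to 5 lay close together and sample 1 stood apart above them, still far below the controls. The means were 1005 ± 163.7 and 207.7 ± 47.5 CPM, and the fall on the log2 scale had an SE of 0.17 (adjusted p = 3.28e-07). Acadl (ENSMUSG00000026003), the long-chain dehydrogenase, was at 451.2, 410.3, 376.6, 407.9 and 379.6 CPM in controls. With puberulic acid Acadl was at 213.9, 184.7, 198.2, 187.3 and 163.6 CPM. Relative to their mean, these treated values spread least among the 7 genes that fell. Acadl fell 2.14-fold (SE 0.09 on the log2 scale, adjusted p = 9.46e-07), from 405.1 ± 30.1 to 189.5 ± 18.5 CPM. All 8 acyl-CoA dehydrogenases tested fell, with a median of -1.84. Acad9, which also helps assemble respiratory complex I, went from 116.8 to 28.4 CPM (-2.04), the short-chain Acads from 245.7 to 60.5 CPM (-2.02), and the very-long-chain Acadvl from 360.6 to 108.1 CPM (-1.74, adjusted p = 2.53e-07).

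Hadha (ENSMUSG00000025745) encodes the alpha subunit of the mitochondrial trifunctional protein, with hydratase and hydroxyacyl-CoA dehydrogenase activity toward long chains. It was at 190.2, 216.8, 172.7, 183.3 and 223.9 CPM in controls and at 211.1, 151.1, 157.2, 133.3 and 144.4 CPM with puberulic acid. Treated sample 1 lay inside the control range and the other 4 treated samples below it. The means were 197.4 ± 22.0 and 159.4 ± 30.2 CPM and the log2 fold change was -0.31 (SE 0.13, adjusted p = 0.0515), so it just missed the threshold. The sign of that value depended on the scaling, since it was 0.20 on total counts (adjusted p = 0.167). Without treated sample 1 it was -0.45 (adjusted p = 0.00117). Hadhb (ENSMUSG00000059447), the thiolase subunit of the same enzyme, was at 255.0, 267.5, 209.6, 228.3 and 257.3 CPM in controls. Its treated samples were at 180.1, 97.9, 129.2, 102.0 and 107.2 CPM, all below the controls, with sample 1 again the highest. Hadhb fell by 0.98 (SE 0.16, adjusted p = 0.000196), from 243.5 ± 23.9 to 123.3 ± 34.0 CPM.

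Acaa2 (ENSMUSG00000036880) encodes the thiolase that ends a round of oxidation of medium chains. It was at 135.9, 295.8, 268.4, 251.4 and 454.9 CPM in controls and at 119.5, 54.6, 80.6, 57.9 and 60.2 CPM in treated samples. Relative to their mean, its controls spread more than those of any other of the 9 genes, and treated sample 1 was only just below control 1. The log2 fold change was -1.92 (SE 0.30, adjusted p = 0.000153), from 281.3 ± 114.6 to 74.6 ± 27.1 CPM. Of the 6 genes from hydration to thiolysis, 5 fell and Hadha did neither, with a median of -1.67. The acetoacetyl-CoA thiolase Acat1 went from 910.2 to 214.4 CPM (-2.09) and the short-chain hydroxyacyl-CoA dehydrogenase Hadh from 541.0 to 165.8 CPM (-1.71). All 7 auxiliary and electron transfer genes fell, with a median of -1.14, among them the dienoyl-CoA reductase Decr1 (249.1 to 82.9 CPM, -1.59) and the flavoprotein subunit Etfb (484.7 to 182.1 CPM, -1.41).

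Plin2 (ENSMUSG00000028494) encodes perilipin 2, which coats cytosolic lipid droplets. It was at 107.0, 105.2, 91.8, 110.7 and 121.4 CPM in controls and at 339.1, 454.3, 393.8, 423.9 and 332.2 CPM in treated samples. The lowest treated sample stood well above the highest control. The means were 107.2 ± 10.6 and 388.7 ± 53.0 CPM, and Plin2 rose by 1.86 on the log2 scale (SE 0.11, adjusted p = 9.02e-08), or 3.62-fold. The lipid droplet list did not rise with it: of 17 genes tested, Plin2 included, 5 rose, 10 fell and 2 did neither, with a median of -0.81. On total counts 8 of the 17 were lower and 6 higher, so the excess of falls depended on the scaling. Fitm1, which helps droplets form, went from 51.2 to 8.73 CPM (-2.55), and Cideb, a droplet fusion protein of liver and kidney, from 254.7 to 48.5 CPM (-2.39). Cidec, a fusion protein abundant in fat cells, rose from 0.367 to 9.44 CPM (4.68, SE 0.85, adjusted p = 0.000412). Without treated sample 3, Cidec still rose, by 3.35 (adjusted p = 3.23e-05). A few further droplet genes were chosen after their values were seen. Hilpda, an inhibitor of the triglyceride lipase ATGL, rose from 1.63 to 5.79 CPM (1.82, adjusted p = 2.02e-05). G0s2, another inhibitor of ATGL, fell from 34.7 to 10.1 CPM (-1.78, adjusted p = 5.44e-05). Pnpla2, which encodes ATGL, fell from 160.9 to 91.8 CPM (-0.81, adjusted p = 0.00105) and missed the threshold on total counts (-0.30, adjusted p = 0.108). Dgat2, which makes triglyceride, fell from 220.2 to 42.3 CPM (-2.38), and Plin5, the perilipin that ties droplets to mitochondria, from 7.87 to 2.05 CPM (-1.94).

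**Figure D2:**
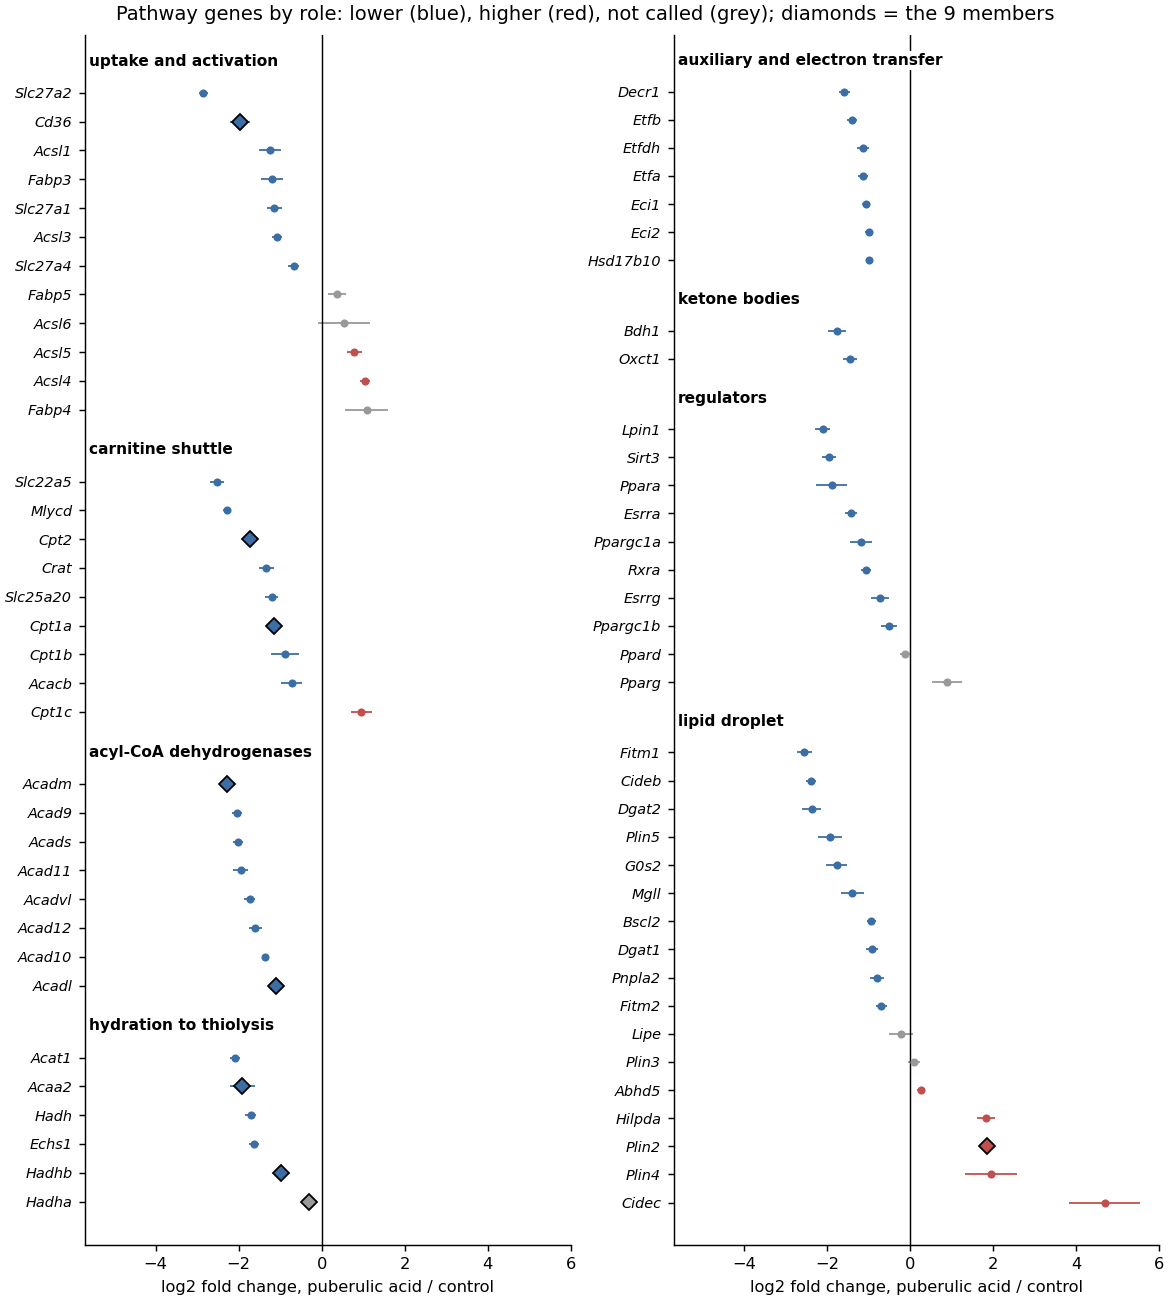
The log2 fold change (puberulic acid minus control, with SE bars) of each tested gene, by list, with diamonds for the 9 genes, circles for the others and a line at no change. All genes of the oxidation steps but Cpt1c lie below 0, while the uptake and droplet genes lie on both sides.

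Treated sample 3 held genes of fat cells that the other treated samples nearly lacked. Adipoq and Lep, which mark adipocytes and were chosen after their values were seen, were at 0 in all controls. Lep was at 0.298 to 0.974 CPM in all 5 treated samples, highest in sample 3 but close to it in sample 1 (0.779 CPM). The summed level of 5 adipocyte markers was 18.7 to 73.2 CPM in controls (nearly all of it Car3), 300.9 CPM in treated sample 3 and at most 11.0 CPM in the other treated samples. Adipoq was 20.3 CPM in that sample, and Cidea and Plin1, chosen after their values were seen, were at 23.5 and 16.9 CPM. Its Cd36, at 123.4 CPM, and its Plin2, at 393.8 CPM, lay within the range of the other 4 treated samples. Both genes are also expressed by fat cells, and the part of such RNA in these levels was not tested. Without it, the lipid droplet list had 3 genes higher instead of 5, and Plin4, another perilipin chosen after its values were seen, lost its call (1.94 with adjusted p = 0.0158, and 1.04 with adjusted p = 0.0564). The counts of the 9 genes were the same without it.

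**Figure D3:**
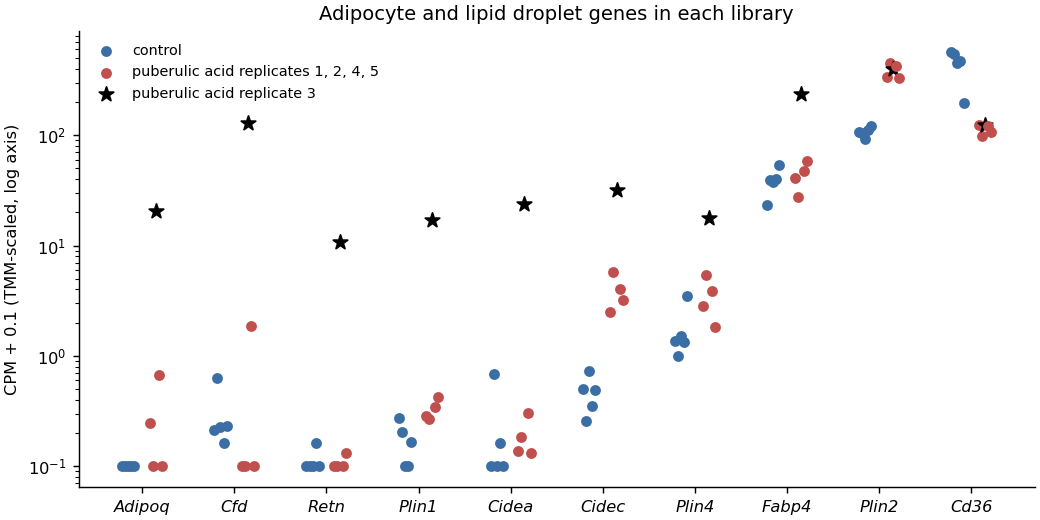
Levels of fat-cell genes and of Cd36 and Plin2 in the 10 samples, on a log axis of CPM plus 0.1. Treated sample 3 is the only treated sample with Adipoq near 20.3 CPM, and its Cd36 and Plin2 sit among those of the other treated samples.

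Ratios within a library do not depend on how libraries are scaled, so 4 pairs were compared by an exact two-sided permutation test over the 10 samples, whose smallest possible p is 0.00794. For each pair the groups did not overlap and p was 0.00794, also after adjustment over the 4. The log2 ratio of Cpt1a to Cpt2 was 1.22 ± 0.16 in controls and 1.78 ± 0.22 in treated samples (SD, n = 5 each), so Cpt2 fell further. That of Acadl to Acadm was -1.30 ± 0.20 and -0.11 ± 0.21, a difference of 1.19, so Acadm fell further than Acadl and the 2 genes' read counts nearly met. That of Hadha to Hadhb was -0.30 ± 0.08 and 0.39 ± 0.15, a difference of 0.70. More reads came from Hadhb than Hadha in every control, and more from Hadha in every treated sample. That of Cd36 to Plin2 was 1.97 ± 0.73 and -1.76 ± 0.29, a difference of -3.73, which is 13.2-fold. Every treated sample was already below all controls for Cd36 and above them for Plin2. That ratio therefore had to separate, and its test adds nothing to the results of the single genes. A ratio shows unequal change only.

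**Figure D4:**
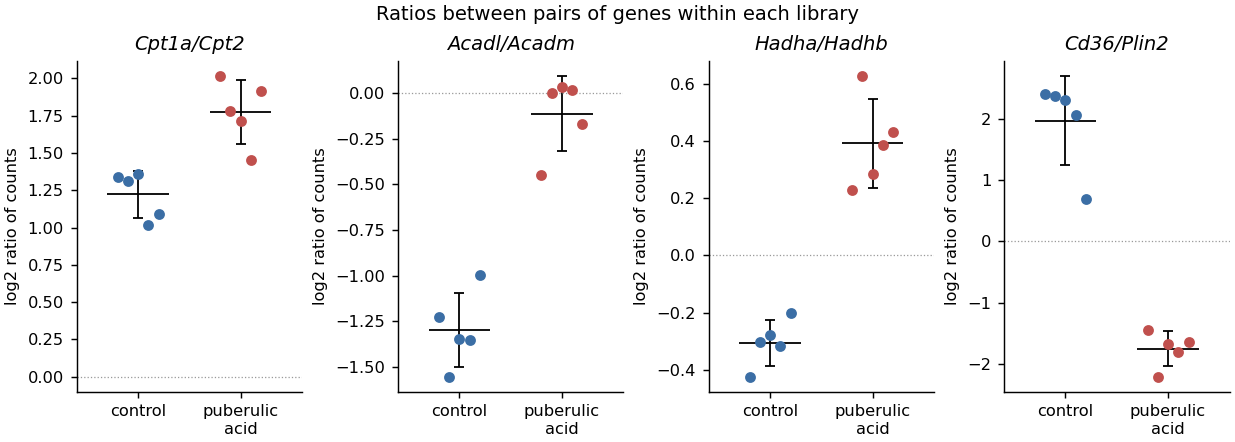
The log2 ratio of counts of 4 gene pairs in each sample, with group means and SD. In each pair the 5 control and 5 treated samples do not overlap, and the Cd36 to Plin2 ratio moves from 1.97 to -1.76.

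To compare genes with each other, CPM was divided by the gene's exon length in kilobases. In controls Acadm led at 490.8 CPM per kb, followed by Acadl at 211.4, Acaa2 at 185.6, Cd36 at 126.3, Hadhb at 117.1, Cpt1a at 112.7, Cpt2 at 88.3, Plin2 at 56.8 and Hadha at 49.1. The samples of Acadm lay above those of Acadl, and those of Cpt1a above those of Cpt2, while neighbours from Acadl to Cpt1a overlapped, as did Plin2 and Hadha. With puberulic acid Plin2 led at 205.9 CPM per kb, with every sample above those of Acadm (101.4). The rest followed as Acadl (98.9), Hadhb (59.3), Cpt1a (50.7), Acaa2 (49.2), Hadha (39.7), Cd36 (32.5) and Cpt2 (26.5), with overlap between all neighbours after Plin2. The level of Plin2 per length thus went from the eighth place to the first.

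Treated sample 1 was the treated sample nearest the controls for 8 of the 9 genes, Plin2 being the exception. For Cd36 the margin was small, at 124.9 CPM against 123.4 CPM in treated sample 3. How often this sample is nearest over all genes was not counted, so the trait is not shown to be particular to these genes. It kept 67.1% of the control mean for Cpt1a, against 33.6% to 44.7% in the other 4, and 107% for Hadha against 67.5% to 79.6%. For Acadm it kept 29.1% against 18.3% to 19.2%, and for Acaa2 42.5% against 19.4% to 28.7%. Its proximal tubule marker sum was also the highest of the treated samples, at 1528 CPM against 628 to 737.4 CPM. The part of that in the values was not tested. The 4 lists of oxidation steps also hold genes such as Acacb and Mlycd, which act on malonyl-CoA and are no steps themselves. Over these lists 28 of 30 genes fell, 93.3% beside the 31.1% of all genes, 1 rose and Hadha did neither. Treated sample 1 was the highest treated sample for 27 of the 28, again with no count over all genes to set beside it. Of the 23 genes of these lists that are not among the 9, 22 fell and 1 rose. On total counts 26 of the 30 were lower and 1 higher, and without treated sample 1 the count was 29 lower and 1 higher.

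**Figure D5:**
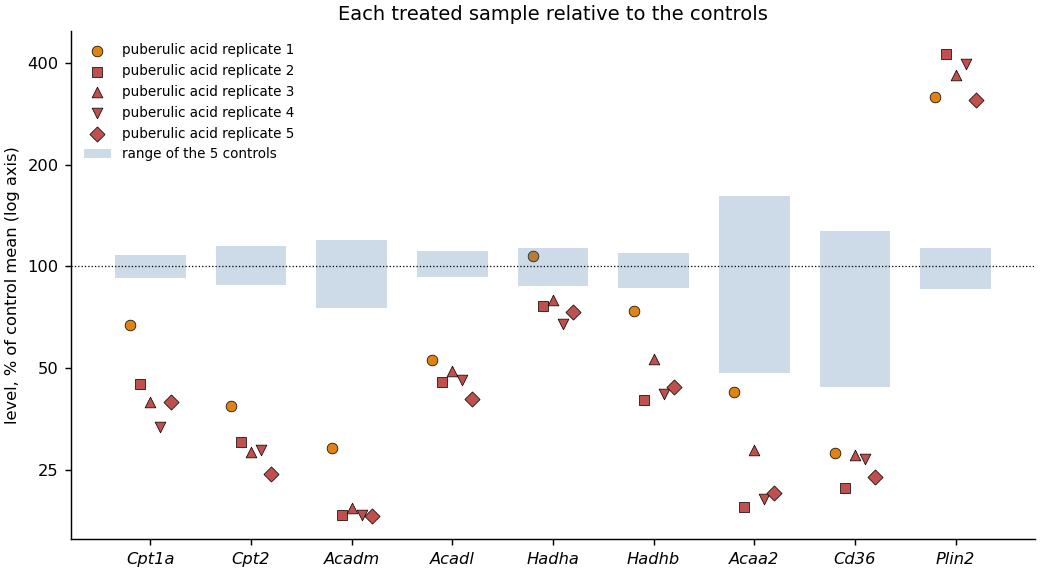
Each treated sample's level as a percent of the control mean, for the 9 genes. Treated sample 1 lies above the other 4 for the 7 genes that fell and for Hadha, and for Hadha it stands at 107% of the control mean, inside the shaded control range (log axis).

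Ketone body genes, PPAR-alpha targets and regulators were read from lists that hold none of the 9 genes. Both ketone body genes analysed fell, the hydroxybutyrate dehydrogenase Bdh1 from 181.7 to 53.5 CPM (-1.76) and Oxct1, which activates acetoacetate for use as fuel, from 1243 to 451.7 CPM (-1.46, adjusted p = 1.3e-05). Of 10 other PPAR-alpha targets tested, 7 fell, 1 rose and 2 did neither, with a median of -1.60. Ehhadh, the peroxisomal bifunctional enzyme, went from 906.3 to 69.0 CPM (-3.71, adjusted p = 9.88e-07), and the omega-hydroxylase Cyp4a14 from 170.5 to 9.54 CPM (-4.16, adjusted p = 5.5e-05, and -4.84 without treated sample 1). Cyp4a and Acot genes have near-identical copies, so their values are uncertain. Pdk4, which restrains pyruvate dehydrogenase, was the target that rose, from 21.4 to 91.9 CPM (2.10, SE 0.33, adjusted p = 0.000143). Without control 1, 3, 4 or 5 or treated sample 1 or 5, 2 targets were called higher, and without control 2 it was 3. Angptl4, a lipase inhibitor chosen after its values were seen, was at 90.4 and 97.6 CPM (0.11, adjusted p = 0.787).

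Of 10 regulators 8 fell, with a median of -1.13. Ppara itself went from 21.3 to 5.68 CPM (-1.90, SE 0.37, adjusted p = 0.000714) with overlapping groups. The coactivator Ppargc1a went from 59.2 to 26.0 CPM (-1.19, adjusted p = 0.00183), the lipin and coactivator Lpin1 from 87.4 to 20.2 CPM (-2.12) and the mitochondrial deacetylase Sirt3 from 95.9 to 24.7 CPM (-1.96). Ppard and Pparg were not called. Without treated sample 1 the counts were 7 lower and 1 higher, and 1 was also higher without control 4 or treated sample 2. On total counts 6 were lower and 2 higher.

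Lipoprotein uptake genes went the other way: 6 of 8 rose, 1 fell and 1 did neither, with a median of 0.89. Msr1, a macrophage scavenger receptor, was called higher (adjusted p = 2.99e-06), with 4 of 5 controls at or below 3 counts, the fifth at 0.571 CPM, and treated samples at 4.49 to 18.2 CPM. Olr1, a receptor for oxidised LDL, was at 0.0230 CPM in controls, below the level of 3 counts, and at 2.14 CPM in treated samples. Without treated sample 1, 2 of the 8 fell instead of 1. The macrophage markers above moved with these receptors, and their part in the rise was not tested. Lpl, lipoprotein lipase, which frees fatty acids from lipoproteins, was the gene that fell, from 1695 to 196.3 CPM (-3.11, adjusted p = 3.61e-07). In fatty acid synthesis 1 of 8 genes rose (Elovl6, 18.7 to 26.9 CPM, 0.52, adjusted p = 0.0222), 1 fell (Me1, 684.8 to 251.2 CPM, -1.45) and 6 did neither. Elovl6 missed the threshold without control 2 or 4 or treated sample 1, 2 or 3 (adjusted p = 0.0579 to 0.0662). Without control 1 or treated sample 3, 2 genes fell instead of 1. On total counts 6 of these 8 were higher and 1 lower.

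Other mitochondrial genes were read beside the oxidation genes. All 14 citrate cycle genes fell, with a median of -1.15, and Suclg1 at -1.72 and Fh1 at -1.68 fell most. On total counts 12 of the 14 were lower and 0 higher. Of 10 genes of general mitochondrial content, 5 fell and 5 did neither, with a median of -0.27. The chaperonin Hspd1 fell by 0.96 and the outer-membrane channel Vdac1 by 0.83. On total counts 2 of these 10 were lower and 6 higher, so the direction of that list depended on the scaling, while the oxidation lists kept theirs.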

How the data were processed

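Kidney RNA was sequenced from 20 samples in 4 groups of 5 in the labels, of which the 10 control and puberulic acid samples were used. The authors deposited 1 table of estimated counts per gene for the whole series, and the submitters' processing notes name fastp 0.22.0, FastQC 0.12.1, MultiQC 1.28, Salmon 1.10.3, DESeq2 and the GRCm39 build, with no role or order. Values of near-identical gene copies are uncertain where counting shares reads among them. Whole numbers made up 59.5% of the values. A further 10 columns could not be matched by name to a lot of the supplement and are not analysed here.

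The estimated counts were rounded to whole numbers and fitted with edgeR 4.0.16 (limma 3.58.1, R 4.3.3) by its quasi-likelihood test with TMM scaling and filterByExpr, which kept 16266 of 55822 genes (30782 had any count). Genes were called at an adjusted p under 0.05. The TMM factors ranged from 0.827 to 0.848 (controls) and from 1.17 to 1.26 (treated), and 3 counts, the limit that a count of 0 allows, stood at 0.0964 to 0.195 CPM per library. These limits cover counting error only. Gene symbols matched 51344 IDs. Ratios used log2 of counts plus 0.5, with exact permutation tests in scipy 1.17.1. Exon lengths are merged exons of protein-coding transcripts in GENCODE. The fit was tested on simulated data with 200 changed genes.

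The members and lists were chosen with earlier results of these data known, and 3 genes of the lists are not reported here. Besides the 9 members, the text names, of each pathway list, the 2 genes with the largest change in the direction most called genes took and the 1 with the largest in the other direction, limited to called genes averaging 1 CPM or more, always Ppara, Ppargc1a, Cpt1b, Slc25a20 and Acadvl, and up to 2 genes of each cell type list. Alternatives were other scalings (RLE, upper quartile, total count), DESeq2 1.42.0, all genes unfiltered, only genes reaching 1 CPM in 5 samples or more, limma-voom, a robust fit, removal of mitochondrially encoded and the 10 most abundant genes, a replicate block, and each sample left out in turn.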

Additional observations from a re-analysis of the deposited data

Results flagged for a closer look

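Each group of 5 samples was searched for a highest or lowest sample whose gap to the next, divided by the range of the group, passed 0.71 (Dixon's test at 95%). Of 132 groups searched 32 had one, where chance gives about 6.6 (5%). Treated sample 1 made up 22 of the 32, as the highest treated sample each time.

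Among the 9 genes it was so for Acadm, at 292.3 CPM against 183.7 to 193.3 CPM in the other 4. Other genes of fatty acid use in that sample were Slc22a5 at 75.01 CPM, Mlycd at 23.01, Acad9 at 38.42, Acads at 78.72, Acat1 at 251.4, Hadh at 227.4, Etfb at 238.7, Bdh1 at 87.52, Oxct1 at 694.0, Cyp4a14 at 23.49, Ehhadh at 138.5 and Fitm1 at 12.95 CPM. Regulators and other mitochondrial genes were Sirt3 at 37.0, Ppargc1a at 48.92, Fh1 at 97.32 and Hspd1 at 395.5 CPM. Tubule markers were Slc22a8 at 10.58, Slc34a1 at 319.1, Pvalb at 5.048, Calb1 at 294.7 and Slc4a1 at 70.97 CPM.

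Treated sample 3 had the highest Cidec at 32.07 CPM (2.413 to 5.665 in the others) and Car3 at 138.8 CPM (5.077 to 8.272). Treated sample 5 had the lowest share of mitochondrially encoded counts, 10.54% against 13.2% to 13.84%. Among controls, sample 5 had the lowest Acat1 at 726.7 CPM, the lowest Fitm1 at 40.78 CPM and the lowest log2 ratio of Cd36 to Plin2, 0.696 against 2.072 to 2.408. Control 2 had the highest Oxct1 at 1391 CPM (1187 to 1240 in the others). Control 1 had the lowest Etfb at 404.1 CPM, the highest Ppargc1a at 75.27 CPM and the lowest Slc22a8 at 362.1 CPM.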

How the results depend on the processing

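The 7 genes that fell and Plin2 kept their direction and their call under all 20 alternatives, and the 4 ratios kept theirs under all 12. For the ratios this was fixed beforehand: the groups did not overlap, so leaving out a sample could not change the call. The other ratio alternatives hardly alter a ratio within a library. Hadha did not: its log2 fold change was -0.32 with RLE (adjusted p = 0.0466), -0.32 with DESeq2 (adjusted p = 0.0347), -0.32 with limma-voom (adjusted p = 0.0386) and -0.31 in a robust fit (adjusted p = 0.0494), past the threshold each time, and 0.20 on total counts. With 1 sample left out it ranged from -0.45 to -0.27, past the threshold without treated sample 1 and without control 3 (-0.36, adjusted p = 0.0391). On total counts 9179 genes were higher and 2526 lower (78.4% of calls higher, against 52.4% with TMM, where 5564 were higher and 5058 lower). Emcn at 0.0320 and Car3 at 0.31 changed sign on total counts, and Car3 ranged from -2.45 to 0.18 with 1 sample left out, called lower without treated sample 3 (adjusted p = 0.000167). Kdr (-0.32) and Nphs1 (-0.49) lost their calls on total counts, Synpo gained one there (0.79), and Slc4a1 and Emcn gained one under several other alternatives. On total counts uptake and activation had 4 genes higher instead of 2. With 1 sample left out, 10104 to 11108 genes were called. Deviations of same-numbered samples from their group means correlated at -0.172 to 0.039. Differently numbered samples were not set beside them, so this cannot show whether the numbers pair samples. A fit with the replicate block called 10325, of which 10111 matched the fit without it. The causes of these changes were not tested. Depth limits low genes such as Olr1 and Cpt1c.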

Other observations

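Control 5 stood at an end of the control range for several genes of lipid use. It had the highest level among controls for 6 of 10 PPAR-alpha targets tested: Cyp4a14 was 331.4 CPM, Cyp4a10 707.5 CPM, Angptl4 186.8 CPM against 36.1 to 87.3 CPM, and Pdk4 41.8 CPM against 12.8 to 21.3 CPM. Among the 9 genes it had the highest Cpt2, Hadha, Acaa2 and Plin2 and the lowest Acadm and Cd36. Cyp4a10 and Angptl4 were chosen after their values were seen. The labels used here give no feeding state per sample.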
